A study of Mus musculus with 9 samples.

Results

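The genes described here are solute carriers, the membrane proteins that move nutrients, metals, ions, transmitters and drugs into and out of cells and organelles. They were taken by name: every symbol of the deposited table that begins with Slc and a number, or with Slco, except Slc5a7 and Slc10a4. The rule found 32 genes of the 1710 in the table (1.87%). Bulk RNA sequencing was done on tissue labelled cortex from wild-type mice, taken from the injected centre 10 days after a stereotaxic injection, with 3 libraries in each of 3 groups: PBS, LowDose and HighDose of adeno-associated virus (AAV), a vector for gene delivery. The study asked how injected brain tissue responds to the amount of vector. The group names give no amounts, every group carries the same injection protocol in the labels, and nothing says that the 3 libraries of a group came from separate mice, so n, SD and p refer to libraries and their spread may be technical.

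The table was already selected on these groups: each of its 1710 genes had mean FPKM (fragments scaled to transcript length and library size) at least 2-fold apart between some pair of groups. Calls below therefore describe listed genes only, and a solute carrier outside the table was not analysed here. GENCODE M21 names 383 protein-coding Slc genes, and the 30 members with an Slc name there are 7.83% of them; 1682 of all 21951 protein-coding genes (7.66%) were listed. Library totals were 18344070 to 23725634 counts. The listed genes took 1.34% to 1.61% of the total in the PBS and LowDose libraries, and 3.90%, 5.21% and 6.04% in HighDose. Markers of cortical excitatory neurons (8 genes) are not among the listed genes, so the tissue label could not be checked on them, while 15 of 18 striatal markers are listed.

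Solute carriers do not share one machine. Some use the sodium or proton gradient to concentrate a substrate, some exchange one solute for another, and some only let it run down its gradient. In the brain, astrocytes and the cells of the blood-brain barrier carry many of them, neurons use vesicular and plasma membrane forms to handle transmitters, and phagocytes carry forms in the lysosome and phagosome that move peptides and metals. The members were grouped by the substrate each family is known for.

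In HighDose against PBS, 18 of the 31 tested members rose (58.1%, against 86.3% of the 1583 tested genes) and 13 fell (41.9%, against 10.7%), by edgeR's quasi-likelihood test with Benjamini-Hochberg adjustment at 0.05. Calls in either direction made up 97.0% of tested genes, so being called sets no member apart. The lowest HighDose library exceeded the highest PBS library for 17 tested members (85.8% of all tested genes were) and the reverse held for 13 (10.3% of all). Slc5a1 was the one tested member whose libraries overlapped. In bulk tissue, fewer cells of a type and less RNA per cell cannot be told apart. The median log2 change was 1.20 over the members and 1.90 over all tested genes. It was 1.53 among the members that rose and -1.11 among those that fell, and 2.17 and -1.24 among all genes that rose or fell.

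The directions of 10 risen members depend on the scale. The values above are on the scale of the whole library (CPM, the count scaled to a common library total). Scaling within the listed genes instead, by TMM, by DESeq2's size factors or by their sum, brought the median of all tested genes from 1.90 to 0.19, 0.22 and 0.22. All tested genes then split into 600, 605 and 607 higher and 464, 455 and 453 lower, against 1366 and 169. The members split into 3 higher and 18, 14 and 15 lower. Slc28a2, Slc15a3 and Slc44a3 were called higher on every scale, and all 13 fallen members kept their call. Slc28a2 and Slc44a3 had under 10 counts in every PBS and LowDose library. They passed the minimum count of 10 for testing only through HighDose, where they are high. A stricter filter of 1 CPM in 3 libraries left Slc44a3 untested. Slc4a11, Slc5a1, Slc7a7, Slc49a3 and Slc11a1 stayed above zero without a call, and Slc12a7, Slc16a3, Slc16a9, Slc1a5, Slc1a6, Slc25a45, Slc2a9, Slc43a3, Slc66a3 and Slc7a11 turned negative. Of these 10, Slc25a45 was called lower on 3 scales, Slc7a11 on 2, and Slc16a9, Slc1a5 and Slc1a6 on 1 each. In HighDose against PBS, the rise of each of these 10 genes was thus smaller than that of the middle listed gene.

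**Figure D1:**
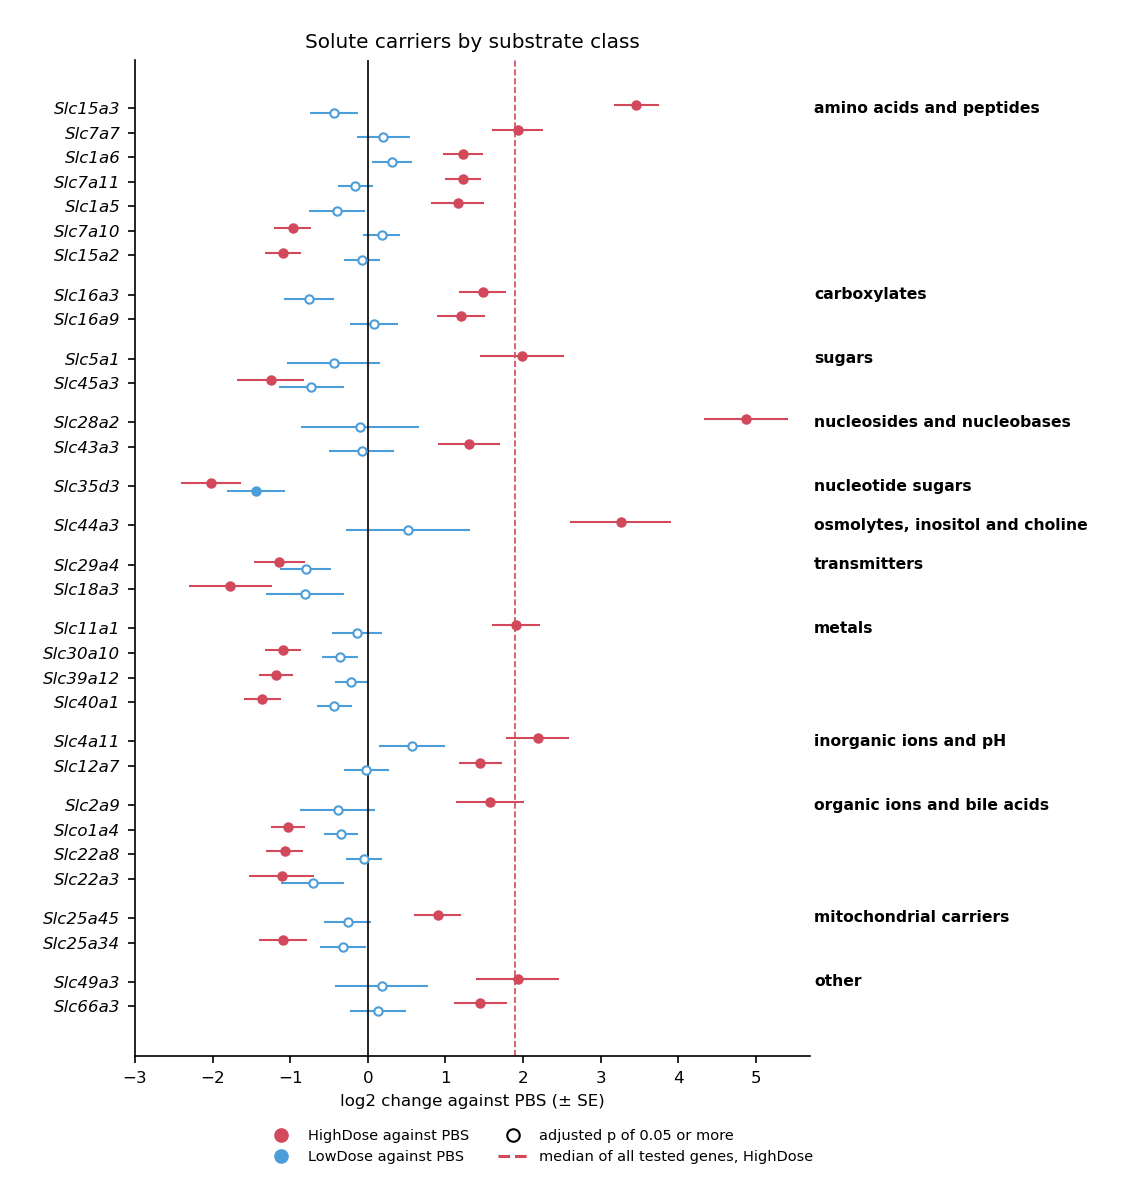
Log2 change against PBS with its standard error for the 31 tested solute carriers, by substrate class, in HighDose (red) and LowDose (blue); open points have an adjusted p of 0.05 or more. All HighDose points are filled, 18 to the right and 13 to the left of zero, and Slc35d3 is the only filled LowDose point; scaling within the listed genes turned 10 of the 18 negative.

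Among the carriers of amino acids and peptides, 5 of 7 rose and 2 fell. Slc15a3, a proton-coupled carrier of histidine and small peptides in the endolysosome, stood at 1.31, 1.70 and 2.44 CPM in PBS, 1.18, 1.57 and 1.28 in LowDose, and 18.9, 18.7 and 22.8 in HighDose. The HighDose libraries lay far above the rest, and the log2 change was 3.46 ± 0.29 (SE, adjusted p = 1.15e-14). Its relative Slc15a2, which brings small peptides in across the plasma membrane, went the other way. It stood at 21.6, 20.1 and 20.7 CPM in PBS, 19.6, 20.01 and 19.8 in LowDose, and 11.5, 11.5 and 6.41 in HighDose, a change of -1.09 ± 0.23 (adjusted p = 3.97e-05). Per length, the mean FPKM of Slc15a2 was 9.44 ± 0.779 (SD, n = 3) in PBS and 4.42 ± 1.54 in HighDose, and that of Slc15a3 was 0.773 ± 0.244 and 8.57 ± 0.976. The family member with the higher level was Slc15a2 in PBS and Slc15a3 in HighDose. Slc15a3 (ENSMUSG00000024737; mm10 chr19:10839727-10859362, plus strand) shares exon sequence with Tmem132a on the other strand, and no source used here says whether strand was used in counting. Of 9 partners of endolysosomal peptide carriers, the receptors and adaptors Tlr7, Tlr8, Tlr9, Irf5, Unc93b1, Nod1, Nod2 and Ripk2 are listed, and all 8 rose, with a median of 2.17 (86.3% of all tested genes rose, with a median of 1.90 over all). Scaled within the list, Tlr8, Tlr9, Irf5 and Nod2 kept their call and Unc93b1 turned negative.

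Slc7a11 brings cystine into the cell in exchange for glutamate and so feeds glutathione synthesis. It had 42.5, 29.6 and 40.4 CPM in PBS, 43.9, 26.4 and 30.2 in LowDose, and 66.6, 83.0 and 114 in HighDose. The groups PBS and LowDose overlapped and HighDose stood above both, at 1.23 ± 0.23 against PBS (adjusted p = 7.56e-06). Its deposited counts were not whole in any of the 9 libraries. Of 10 genes of glutathione synthesis and use, Chac1, which breaks glutathione down, is the one listed, and it rose by 1.98, near the median of all tested genes.

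Slc7a7, which exchanges cationic for neutral amino acids, had 1.37, 1.501 and 1.66 CPM in PBS, 1.90, 1.89 and 1.39 in LowDose, and 4.82, 5.32 and 7.21 in HighDose. The change was 1.93 ± 0.33 (adjusted p = 1.36e-06), close to the median of all tested genes; its exons overlap those of Oxa1l on the other strand. The glutamine carrier Slc1a5 and the glutamate carrier Slc1a6, in the brain best known from Purkinje cells, rose by 1.16 ± 0.34 and 1.23 ± 0.26. Slc7a10, an exchanger of small neutral amino acids including D-serine, fell by 0.97 on the log2 scale (SE 0.24, adjusted p = 0.000327). It had 20.8, 23.7 and 18.8 CPM in PBS, 18.5, 26.9 and 26.5 in LowDose, and 13.3, 12.6 and 6.36 in HighDose, so only HighDose stood apart.

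Slc7a11 is a known target of the amino acid response, in which ATF4 and C/EBP proteins bind a composite DNA element. Promoter sequences (RefSeq, GRCm38.p6, 250 bases before to 50 after a start) were at hand for 25 of the 32 members; those of Slc1a5, Slc15a3, Slc40a1, Slc43a3, Slc49a3, Slc66a3 and Slc4a11 were not. The letters TGATGNAA, searched on both strands, occurred in the promoters of 2 of 12 risen members, Slc7a11 and Slc7a7, in 0 of 12 fallen members, and in 1 or more promoters of 4.51% of 27025 genes. Both are printed because no other member held these letters, which are in capitals; each is read on the strand of its gene. The Slc7a11 stretch is chr3:50443614-50443714 (minus strand) and carries 2 copies in opposite orientation. The Slc7a7 stretch is chr14:54417935-54418094 (minus strand), 1 of 5 entries for the gene, 2 of which hold the letters.
Slc7a11: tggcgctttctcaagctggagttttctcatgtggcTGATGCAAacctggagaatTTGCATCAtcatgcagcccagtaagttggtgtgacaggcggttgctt
Slc7a7: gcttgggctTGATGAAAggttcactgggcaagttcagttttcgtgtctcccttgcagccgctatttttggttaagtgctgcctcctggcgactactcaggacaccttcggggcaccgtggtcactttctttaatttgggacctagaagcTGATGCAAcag
A core of the interferon response element (GAAA repeated after 2 bases of any kind, both strands) was found in 0 of 12 risen and 0 of 12 fallen members and in 3.99% of genes. These matches describe letters in a window and no binding was measured.

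Both carriers of nucleosides and nucleobases rose, with Slc28a2 showing the largest change of any member. Slc28a2 (ENSMUSG00000027219; chr2:122426477-122461137, plus strand) is a sodium-coupled importer that prefers purine nucleosides. It had 0.218, 0.242 and 0.0461 CPM in PBS, 0.253, 0 and 0.214 in LowDose, and 5.12, 3.44 and 6.54 in HighDose. PBS and LowDose held 10 counts each over their 3 libraries, and HighDose 340, a ratio of 30.9 to PBS with a 95% counting interval of 16.6 to 65.0. The log2 change was 4.88 ± 0.54 (adjusted p = 7.30e-11), and 3 counts, the least taken as above 0, equal 0.126 to 0.164 CPM. Slc43a3, a purine nucleobase carrier, rose by 1.31 ± 0.40 (adjusted p = 0.0024). Of 13 genes of purine and pyrimidine salvage, 6 are listed and all 6 rose, with a median of 2.63: Upp1, Ada, Pnp, Xdh, Samhd1 and Cmpk2. Of all tested genes 86.3% rose, with a median of 1.90 over all. Scaled within the list, 5 of the 6 kept their call and Ada did not. Samhd1, which breaks down deoxynucleotides, rose from 14.9 ± 2.03 to 155 ± 36.4 CPM (SD, n = 3).

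Metal carriers split by direction, 1 up and 3 down. Slc11a1, which moves iron and manganese out of the phagosome of macrophages, had 2.51, 2.42 and 1.61 CPM in PBS, 1.39, 2.47 and 2.08 in LowDose, and 8.31, 7.80 and 8.41 in HighDose. HighDose lay above all other libraries with little spread, and the change was 1.91 ± 0.31 (adjusted p = 4.42e-07). Slc40a1 is ferroportin, the exporter of iron from cells (ENSMUSG00000025993; chr1:45908068-45926523, minus strand). It had 11.4, 13.03 and 12.9 CPM in PBS, 9.44, 9.22 and 8.98 in LowDose, and 4.94, 5.02 and 4.51 in HighDose, so the 3 groups did not overlap. Its fall in HighDose was -1.36 ± 0.24 (adjusted p = 2.26e-06); in LowDose the change of -0.43 ± 0.23 did not pass (adjusted p = 0.491). Of 13 genes of iron and heme handling, Hmox1, Lcn2, Cp and Steap4 are listed, and all 4 rose, as did 86.3% of all tested genes. Scaling within the list turned Cp and Steap4 negative. Hmox1, which releases iron from heme, went from 5.16 ± 1.07 CPM in PBS to 158 ± 70.6 in HighDose.

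Slc39a12, a zinc importer, is one of the most abundant members. It had 58.6, 70.8 and 62.1 CPM in PBS, 48.7, 60.0 and 56.6 in LowDose, and 33.3, 30.0 and 21.3 in HighDose, a change of -1.18 ± 0.22 (adjusted p = 4.90e-06). Slc30a10, which exports manganese, had 18.1, 19.3 and 18.1 CPM in PBS, 15.3, 14.3 and 13.5 in LowDose, and 9.67, 10.4 and 5.94 in HighDose. Its groups did not overlap either, and its change was -1.09 ± 0.23 (adjusted p = 4.36e-05).

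Carriers of organic ions fell in 3 of 4 tested cases. Slco1a4, which moves organic anions across the endothelium of the blood-brain barrier, had 51.2, 58.4 and 49.1 CPM in PBS, 40.4, 43.6 and 40.4 in LowDose, and 29.1, 31.3 and 17.5 in HighDose. The groups did not overlap and the HighDose change was -1.03 ± 0.22 (adjusted p = 5.20e-05). Slc22a8, another organic anion carrier of barrier cells, had 15.2, 16.2 and 17.1 CPM in PBS, 15.9, 14.8 and 16.1 in LowDose, and 10.4, 7.22 and 5.55 in HighDose (-1.07 ± 0.24, adjusted p = 7.72e-05). Here LowDose lay within the range of PBS or just under it. Slc22a3, a carrier of organic cations including monoamines, fell by 1.11 on the log2 scale (SE 0.42, adjusted p = 0.0113), a call lost without PBS replicate 2 (-0.87, adjusted p = 0.0849). Slc2a9, known for urate, rose by 1.58 ± 0.44. PBS replicates 1 and 2 were at 0.491 and 0.484 CPM and PBS replicate 3 at 1.48. The change was 2.33 without PBS replicate 3, 1.32 without PBS replicate 1 and 1.31 without PBS replicate 2. Slc10a6, a carrier of sulphated steroids, was too low to test. It had 3 counts over PBS, 5 over LowDose and 45 over HighDose, a ratio of HighDose to PBS of 13.6 with a 95% counting interval of 4.37 to 68.5. Counting intervals cover counting error only.

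Endothelial markers were set beside Slco1a4 and Slc22a8. Of 10, Ly6c1 and Vwf are listed, and their summed CPM was 46.9 to 68.1 in PBS, 50.8 to 58.7 in LowDose and 105 to 145 in HighDose. They rose by 1.11 and 1.09 on the log2 scale, less than the median of all tested genes, and scaling within the listed genes turned both negative. Of 7 astrocyte markers, Gfap is listed, at 113 to 146 CPM in PBS, 100 to 168 in LowDose and 374 to 534 in HighDose (1.85, and 0.14 to 0.17 without a call when scaled within the list). Slc7a10, Slc39a12 and Slc15a2, which are among the members known from astrocytes, fell. The members were not sorted by cell type, so these falls do not stand for all carriers of astrocytes. Of 11 choroid plexus and ependyma markers, Kcnj13 and Aqp1 are listed (1.31 to 8.39 CPM in PBS, 2.26 to 3.15 in LowDose, 6.43 to 11.6 in HighDose); Aqp1 rose, and Kcnj13 changed by 0.20 without a call (adjusted p = 0.709). Of 11 meningeal ones, Dcn, Lum and Fmod are listed, with a sum of 20.5 to 28.6, 28.8 to 36.7 and 40.4 to 70.7; Dcn and Lum rose and Fmod fell (-0.67, adjusted p = 0.0154). Scaling within the list turned Aqp1 and Lum negative. What these cells contributed to the falls was not tested.

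Both transmitter carriers fell in HighDose. Slc18a3 loads acetylcholine into synaptic vesicles; it had 1.64, 1.65 and 1.52 CPM in PBS, 1.48, 0.899 and 0.321 in LowDose, and 0.744, 0.574 and 0.0867 in HighDose. The change was -1.77 ± 0.54 (adjusted p = 0.0023), and LowDose reached from just under PBS into the range of HighDose. The gene lies inside Chat, the acetylcholine synthesis gene, on the same strand and without a shared exon. Chat itself fell in HighDose, from 3.27 ± 0.911 CPM in PBS (SD, n = 3) to 0.602 ± 0.485, with 1.66 ± 0.933 in LowDose. Slc29a4, a monoamine carrier of the plasma membrane, had 3.93, 3.44 and 6.55 CPM in PBS, 2.49, 2.38 and 3.15 in LowDose, and 2.06, 1.58 and 2.69 in HighDose (-1.14 ± 0.33, adjusted p = 0.00165). Its LowDose libraries were all below PBS, but the change of -0.80 ± 0.33 did not pass (adjusted p = 0.246).

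Slc35d3, of the nucleotide sugar family (ENSMUSG00000050473; chr10:19847916-19851459, minus strand), was the one member called in LowDose. It had 6.71, 5.23 and 5.26 CPM in PBS, 3.79, 1.80 and 0.641 in LowDose, and 1.62, 1.39 and 1.21 in HighDose. The LowDose libraries ran from between the other groups to under every HighDose library. The change was -2.02 ± 0.39 in HighDose (adjusted p = 8.03e-06) and -1.44 ± 0.37 in LowDose (adjusted p = 0.0219). The LowDose call was lost without LowDose replicate 3 (-1.03, adjusted p = 0.161), without LowDose replicates 2 and 3 (-0.59, adjusted p = 0.975), with only the 2 groups fitted (-1.43, adjusted p = 0.0806) and under each scaling within the listed genes (-1.37, -1.39 and -1.23). Without LowDose replicate 1 it was -2.20. The 15 listed striatal markers, which include Drd1, Drd2 and Adora2a, followed the same order of libraries in LowDose: their summed CPM was 1138, 735 and 546 in LowDose, 1353 to 1968 in PBS and 478 to 574 in HighDose. All 15 fell in HighDose (10.7% of all tested genes did) and 12 in LowDose (2.15% of all did). Their part in the values of Slc35d3, Slc18a3 and the other members was not tested.

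**Figure D2:**
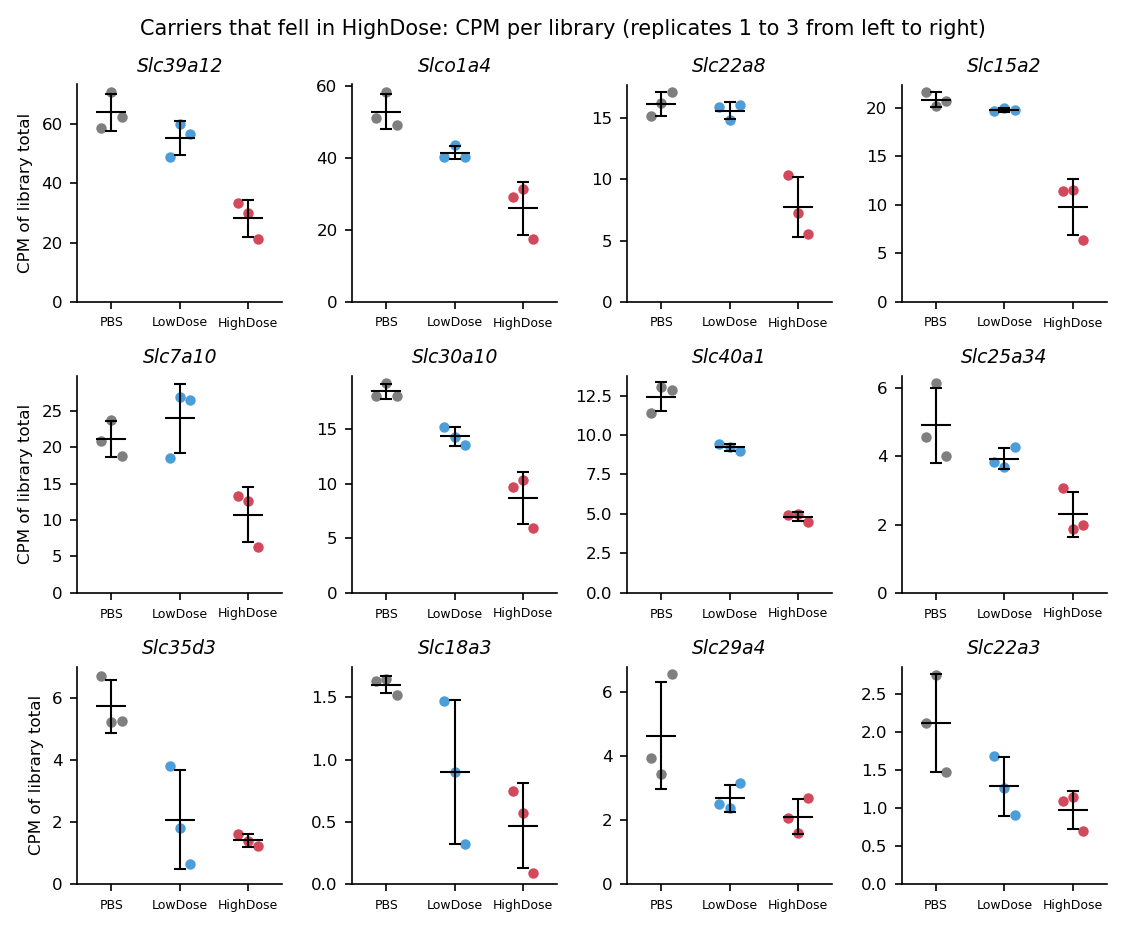
CPM of the library total in each of the 9 libraries for 12 of the 13 solute carriers that fell in HighDose, with the group mean and SD in black. HighDose libraries lie under all PBS libraries in each panel, and the LowDose libraries of Slc35d3 and Slc18a3 spread from 3.79 to 0.641 and from 1.48 to 0.321.

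The carriers of carboxylates, inorganic ions and choline rose, as did 86.3% of all tested genes. Slc16a3, an exporter of lactate from glycolytic cells, had 3.38, 3.29 and 2.63 CPM in PBS, 1.94, 1.66 and 1.87 in LowDose, and 6.17, 6.84 and 12.97 in HighDose. The groups did not overlap, and LowDose was the lowest: the change was 1.48 ± 0.30 in HighDose (adjusted p = 2.40e-05) and -0.76 ± 0.32 in LowDose (adjusted p = 0.269). Of 15 glycolysis genes, the hexokinases Hk2 and Hk3 are listed and rose by 1.56 and 3.21; scaling within the list turned Hk2 negative, as it did Slc16a3, and kept the call of Hk3. Slc16a9, of the same family, rose by 1.20 ± 0.31, with 4.68, 5.45 and 9.97 CPM in HighDose against 2.67 to 3.05 in PBS. Slc44a3, of the choline carrier family, had 7 counts in all over PBS, 11 over LowDose and 78 over HighDose, a ratio to PBS of 10.1 with a 95% counting interval of 4.68 to 26.0 and a log2 change of 3.26 ± 0.65 (adjusted p = 1.58e-05). Slc4a11, of the bicarbonate carrier family, had 0.436, 0.872 and 0.968 CPM in PBS, 0.885, 1.66 and 0.855 in LowDose, and 3.19, 2.87 and 4.51 in HighDose (2.19 ± 0.41, adjusted p = 6.07e-06). Slc12a7, which lets potassium and chloride out of cells, rose by 1.45 ± 0.28. Scaling within the list also turned Slc16a9 and Slc12a7 negative and left Slc4a11 without a call.

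Sugar carriers split. Slc5a1, the sodium-coupled glucose carrier, had 1.42, 0.630 and 0.415 CPM in PBS, 0.969, 0.270 and 0.534 in LowDose, and 4.38, 4.93 and 0.390 in HighDose. HighDose replicate 3 was at the level of the controls and the other HighDose libraries were above them. The change was 1.99 ± 0.54 (adjusted p = 0.000797), and by DESeq2's Wald test the adjusted p was 0.0383. With 1 library left out, the change ran from 1.55 (without HighDose replicate 2) to 2.62 (without PBS replicate 1). Slc45a3, which is found in oligodendrocytes, had 1.74, 1.79 and 2.12 CPM in PBS, 0.759, 1.57 and 1.07 in LowDose, and 0.788, 0.718 and 0.867 in HighDose (-1.25 ± 0.43, adjusted p = 0.00633). Of 8 oligodendrocyte markers, Mog and Mal are listed, and their summed CPM was 443 to 555 in PBS, 275 to 308 in LowDose and 187 to 265 in HighDose.

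Mitochondrial carriers split as well. Slc25a45 rose by 0.90 ± 0.30, a call lost without HighDose replicate 2 (0.71, adjusted p = 0.0537). Slc25a34 had 4.58, 6.15 and 4.01 CPM in PBS, 3.84, 3.69 and 4.28 in LowDose, and 3.06, 1.87 and 1.99 in HighDose (-1.09 ± 0.31, adjusted p = 0.00139). Slc49a3 rose by 1.93 ± 0.54 and Slc66a3 by 1.45 ± 0.34; they were left without a class.

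**Figure D3:**
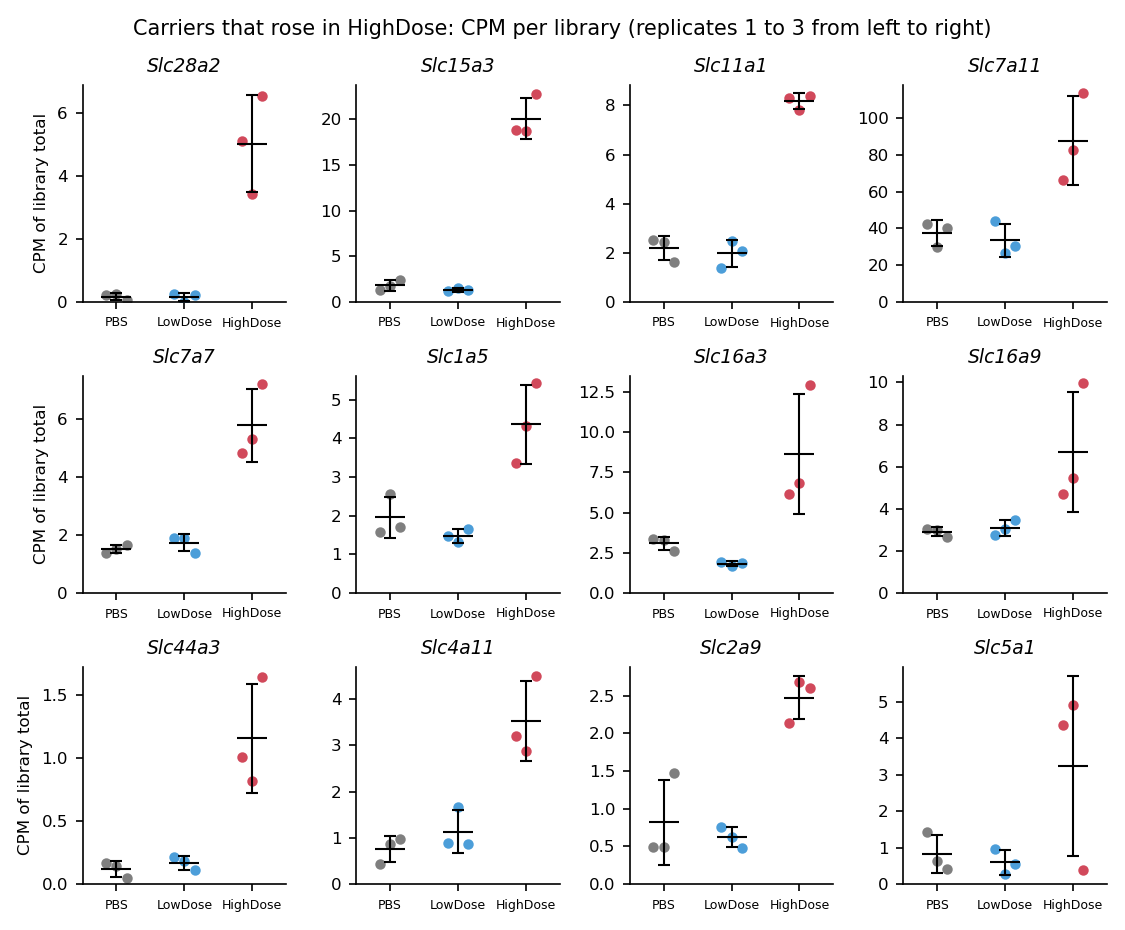
CPM of the library total in each of the 9 libraries for 12 of the 18 solute carriers that rose in HighDose, with the group mean and SD in black. HighDose libraries lie above all PBS and LowDose libraries except for Slc5a1, whose HighDose replicate 3 is at 0.390; scaling within the listed genes turned Slc7a11, Slc1a5, Slc16a3, Slc16a9 and Slc2a9 negative.

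Leukocyte markers were higher in the same HighDose libraries, in which 86.3% of all tested genes rose against PBS. Of 10 microglia and macrophage markers 8 are listed: 7 rose and P2ry12 fell (scaled within the list, Cd68, Itgam, Tmem119, Tyrobp and Cd14 turned negative), and their summed CPM was 110 to 134 in PBS, 107 to 112 in LowDose and 202 to 267 in HighDose. Of 9 monocyte and border macrophage markers 4 are listed: Ly6c2, Ccr2 and Plac8 rose and Cd163 fell, with a sum of 1.89 to 2.78 CPM in PBS, 1.98 to 3.17 in LowDose and 109 to 193 in HighDose. Of 9 T cell markers 6 are listed and all rose, with a sum of 0.484 to 0.922 CPM in PBS, 0.927 to 1.17 in LowDose and 12.4 to 25.4 in HighDose; Cd3d was at 0 in the PBS libraries. Their part in the rise of Slc11a1, Slc15a3, Slc28a2 and the other members was not tested. In the gene annotation of the deposited table, the 2 members placed in the lysosome, Slc11a1 and Slc15a3, both rose. Of 20 placed in the plasma membrane, 12 rose and 7 fell. Among all tested genes 86.3% rose and 10.7% fell, and scaled within the list Slc11a1 lost its call.

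The members at the top of the range in PBS were among those that fell. The 5 highest mean FPKM values in PBS belonged to members that fell: Slco1a4 (24.9 ± 2.20, SD, n = 3), Slc39a12 (24.2 ± 2.83), Slc7a10 (11.96 ± 2.57), Slc15a2 and Slc22a8 (4.70 ± 0.280). The first pair did not differ beyond its spread. Slc7a11 came sixth, with 4.07 ± 0.751. Other fallen members were low: Slc18a3, Slc45a3 and Slc22a3 had 0.663, 0.643 and 0.607 FPKM in PBS, less than risen members such as Slc1a6 (2.69) and Slc16a3 (1.73). In HighDose the order was Slco1a4 (12.3 ± 3.66), Slc39a12 (10.7 ± 2.22), Slc7a11 (9.52 ± 2.60), Slc15a3 and Slc1a6 (6.30 ± 1.18), and neighbours among the first 4 did not differ beyond their spread.

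**Figure D4:**
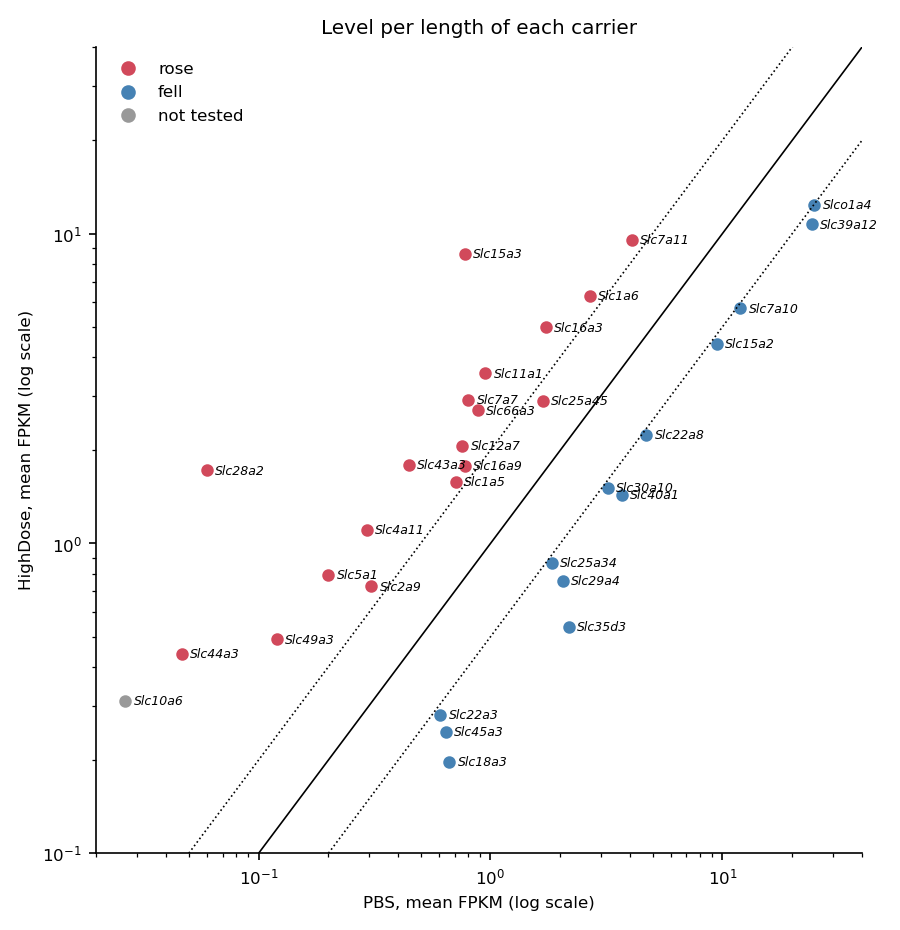
Mean FPKM in PBS (horizontal) and HighDose (vertical) for the 32 solute carriers, both on log scales, with lines at equality and at a 2-fold difference; red members rose, blue fell, grey was not tested. Slc28a2 and Slc15a3 lie farthest above the line among tested members, and the members at the right edge, Slco1a4, Slc39a12, Slc7a10 and Slc15a2, lie below it.

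Summed over the 18 risen members, FPKM was 17.3 ± 1.69 (SD, n = 3) in PBS, 16.3 ± 0.763 in LowDose and 53.9 ± 10.2 in HighDose. Summed over the 13 fallen members it was 90.1 ± 6.50, 75.0 ± 5.88 and 41.3 ± 9.96. All 32 together summed to 107 ± 4.85, 91.3 ± 5.09 and 95.5 ± 4.01. These sums are a description, since the calls from the same libraries chose the members of the risen and fallen parts. That choice set the opposite moves of the parts and their partial cancelling in the total. Carriers outside the table are in none of the sums. HighDose replicate 3 was the highest HighDose library for 13 of 18 risen members and the lowest for 10 of 13 fallen ones. Without it, all 18 and 13 calls were kept.

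**Figure D5:**
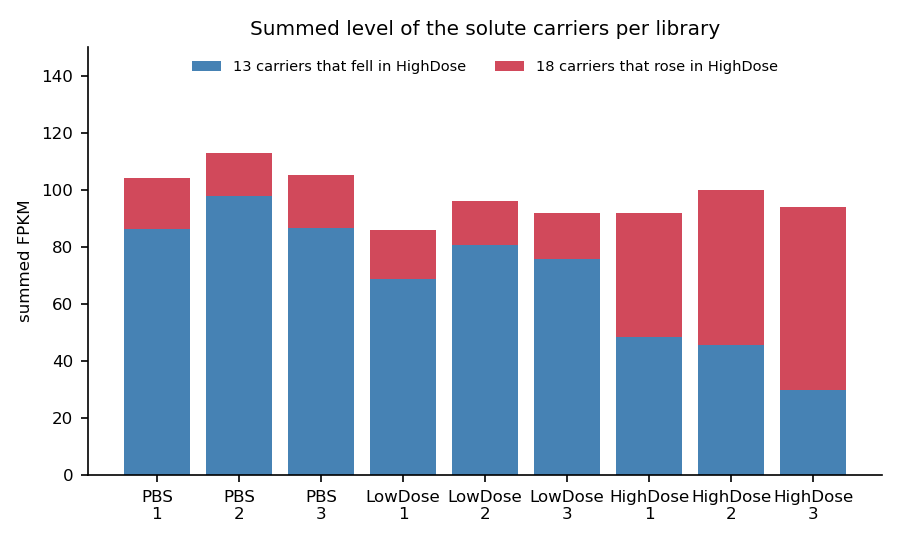
Summed FPKM per library of the 13 members that fell in HighDose (blue) and the 18 that rose (red), stacked. The blue part is 86.1 to 97.6 in PBS and 29.9 to 48.4 in HighDose, and the red part is 15.4 to 18.6 in PBS and 43.6 to 63.9 in HighDose.

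In LowDose against PBS, 0 members rose (0.442% of all tested genes did) and 1 fell (2.15% of all did), with 2.59% of tested genes called in either direction. At an unadjusted p under 0.05 there were 3 members: Slc35d3, Slc16a3 and Slc29a4. LowDose libraries were all below PBS for 9 members, namely Slc15a2, Slc16a3, Slc40a1, Slc45a3, Slc30a10, Slco1a4, Slc35d3, Slc29a4 and Slc18a3, and all above PBS for 0. The share of all tested genes with such LowDose libraries, or with such an unadjusted p, was not counted. Neither count therefore sets the members apart or shows a fall of carriers in LowDose. Only Slc35d3 among the 9 was called, and the change of Slc15a2 was -0.07. The median change over the members was -0.21, and -0.03 over all tested genes. For Slc28a2 the LowDose change was -0.10 with a 95% interval of -1.58 to 1.39, so a change of the size seen in HighDose lies outside it but a 2-fold one does not. For Slc15a3 it was -0.44 (-1.04 to 0.16) and for Slc11a1 -0.14 (-0.77 to 0.49).

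In HighDose against LowDose, which shares the HighDose libraries with the comparison above, 18 members rose (58.1%, against 88.1% of all tested genes) and 8 fell (25.8%, against 7.08%), with 95.1% called in either direction. The largest rises were those of Slc28a2 (4.97 ± 0.54), Slc15a3 (3.90 ± 0.29), Slc44a3 (2.74 ± 0.60), Slc5a1 (2.42 ± 0.55) and Slc16a3 (2.24 ± 0.32). Scaling within the listed genes left 2 members called higher and 16, 16 and 17 lower; the rises of Slc44a3, Slc5a1 and Slc16a3 then did not pass. The lowest changes were those of Slc7a10 (-1.16 ± 0.24), Slc15a2 (-1.02 ± 0.23), Slc22a8 (-1.01 ± 0.24), Slc39a12 (-0.96 ± 0.22) and Slc40a1 (-0.93 ± 0.24). Leaving out LowDose replicate 1 moved Slc28a2 to 5.59 and Slc5a1 to 3.01, and leaving out LowDose replicates 2 and 3 moved them to 4.29 and 1.73. The fall of Slc25a34 (-0.76 ± 0.31, adjusted p = 0.0202) was lost without LowDose replicate 3 (adjusted p = 0.058) or HighDose replicate 2 (adjusted p = 0.0961). Without LowDose replicates 2 and 3 together, the calls of Slc25a34, Slc49a3, Slc66a3 and Slco1a4 were lost (adjusted p from 0.0744 to 0.116). The 5 members without a call were Slc18a3, Slc22a3, Slc29a4, Slc35d3 and Slc45a3, whose HighDose and LowDose libraries overlapped. Each of the 5 had fallen in HighDose against PBS. Their changes in LowDose against PBS ran from -0.71 to -1.44, and only that of Slc35d3 was called. That change is the difference of the 2 comparisons that picked these members, so its negative sign follows from the choice.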

How the data were processed

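Per the file headers, the deposited table holds the authors' estimated counts and their FPKM per gene for 9 libraries. The counts were not whole for 7.66% to 14.0% of genes and were rounded here. Per the submitters' processing notes, the build is mm10 and DESeq2 and edgeR were used; no source used here names the aligner, the counter or the use of strand. No sample column was left out.

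Each library's total was recovered from the ratio of deposited count to deposited FPKM over listed genes that GENCODE M21 gives 1 transcript. The genes had a minimum FPKM of 5, a minimum count of 100 and a minimum length of 600 bases. Those whose value lay 1% or more from the median of the library were left out. The scaled median absolute deviation of the rest was at most 0.0448% in each library. CPM divides by the recovered total. The main test was edgeR 4.0.16 (R 4.3.3), a quasi-likelihood model of all 3 groups with these totals as library sizes and filterByExpr at a minimum count of 10, which kept 1583 of 1710 genes, with Benjamini-Hochberg adjustment over all of them; SE is the absolute log2 change divided by the root of its F statistic. On simulated counts for 1233 genes of HighDose against PBS, it recovered 90% and 92% of changes of -1 and 1 and 100% of changes of -2 and 2. Of its calls, 3.54% were on unchanged genes. The simulation used PBS means and the same spread for every gene. It gave each change to 50 genes that were not low in PBS and left the rest unchanged. In the real comparison 97.0% of tested genes were called, so these figures do not carry over to it or to low-count members. Alternatives used limma 3.58.1 and DESeq2 1.42.0.

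The members and gene lists were chosen with earlier results of these data known; Slc49a3 was moved out of a class afterwards, its substrate being uncertain. Values in each library are given for called members at 1 CPM or more among the 10 highest and lowest changes in HighDose against PBS and the 5 highest and lowest in the other comparisons, for 6 members fixed by name, and for others where a sentence turns on them, chosen after their values were seen. Replicate numbers come from the labels. Deviations of same-numbered libraries correlated at 0.246, 0.165 and 0.137 between PBS and LowDose, and at -0.00571 to 0.183 in the other comparisons. Libraries with unlike numbers correlated at -0.147 to 0.0133 between PBS and LowDose, and at up to 0.131 in the other comparisons. Whether the numbers pair libraries was not tested, and the main test used no pairing. Exons overlap another gene for Slc7a7, Slc22a3, Slc15a3, Slc7a10, Slc45a3, Slc30a10, Slc16a9 and Slc44a3, and counts were not whole in some libraries for Slc7a11, Slc7a10, Slc7a7, Slc28a2 and Slc16a3; these values are less certain. Where several rows carry a list gene's symbol (Itgam, Pnp), the first was used.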

Additional observations from a re-analysis of the deposited data

How the results depend on the processing

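The main limits are a table selected on these same groups, 3 libraries a group that may not be separate mice, and low counts for Slc10a6, Slc28a2 and Slc44a3. The settings run besides the 3 scalings were no filter, a stricter filter, DESeq2's Wald test, limma-voom (weighted libraries), a fit of the 2 groups alone, the replicate block, each library left out and, chosen after seeing the data, totals without the listed genes, calls that are also 2-fold, and LowDose without replicates 2 and 3. In these the members called in HighDose against PBS stayed within 1.5 times of 18 and 13. With the replicate block they were 18 and 13, in LowDose against PBS 0 and 1, and in HighDose against LowDose 18 and 8, so the block changed no count.

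With TMM, DESeq2's size factors and the listed sum, in that order, members called higher in HighDose against PBS were 3, 3 and 3, members called lower in LowDose against PBS were 0, 0 and 0, and in HighDose against LowDose 2, 2 and 2 rose and 16, 16 and 17 fell. The LowDose count was also 0 with the 2 groups alone and without LowDose replicates 2 and 3 (the lone library assumed to vary like the other groups), and 0 to 1 with 1 library left out. With a 2-fold limit, 3 members fell in HighDose against LowDose.

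These scalings turned the HighDose against PBS changes to -0.27, -0.24 and -0.24 (Slc12a7), -0.25, -0.22 and -0.22 (Slc16a3), -0.53, -0.50 and -0.50 (Slc16a9), -0.55, -0.53 and -0.52 (Slc1a5), -0.48, -0.45 and -0.45 (Slc1a6), -0.81, -0.78 and -0.78 (Slc25a45), -0.12, -0.09 and -0.09 (Slc2a9), -0.39, -0.36 and -0.36 (Slc43a3), -0.26, -0.23 and -0.23 (Slc66a3) and -0.50, -0.47 and -0.47 (Slc7a11). In HighDose against LowDose, Slc7a11 became -0.39, -0.35 and -0.51. By construction, scaling within the list sets its middle near 0. Uncalled LowDose changes near 0 turned to 0.07 (Slc11a1), 0.11 (Slc28a2) and 0.04 (Slc7a11) with the listed sum, 0.00 (Slc11a1) with limma-voom, and 0.59 (Slc28a2) and 0.23 (Slc7a11) without LowDose replicates 2 and 3. With 1 library left out they ran from -0.33 to 0.07 (Slc11a1) and from -0.71 to 0.49 (Slc28a2).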
